A study of Mus musculus with 74 samples.

Results

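Thymocytes from mice with the DO11.10 T cell receptor transgene, taken 6 h after injection of antigenic peptide, were set against thymocytes of uninjected DO11.10 mice on 2-colour arrays. These 6 arrays were chosen by their labels, out of 74 arrays in 11 groups of a mouse series on gene regulation by the histone deacetylase HDAC7. Both RNAs came from total thymocytes carrying the same receptor transgene, so the injection is the named difference between them. The same comparison was made at 3 h and at 12 h (6 arrays each). Arrays of the DO11.10 T cell hybridoma, a cell line, are used at the end: cells with the empty retrovirus MSCV treated with PMA and ionomycin for 2.5 h (8 arrays), and cells with HDAC7-VP16 (10 arrays), each against untreated hybridoma cells. The peptide's sequence, dose and route, and the strain, sex, age and number of the animals, are stated in none of the sources at hand. Nothing in the labels says that arrays hold RNA of separate animals, or whether the uninjected RNA was 1 pool, so each p-value reflects array-to-array spread, which may be technical and may leave out the spread of the uninjected animals.

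The DO11.10 receptor recognises an ovalbumin peptide held by an MHC class II molecule, and nearly all thymocytes of these mice carry it. Strong stimulation of this receptor in immature thymocytes leads to negative selection, the deletion of self-reactive cells, and switches on immediate early genes such as Nr4a1 (Nur77), an orphan nuclear receptor linked to that deletion. HDAC7, a class IIa histone deacetylase abundant in thymocytes, binds MEF2 factors and represses Nr4a1 until receptor signals send it out of the nucleus. The injection reaches every cell of the animal, so thymic epithelium, macrophages and peripheral T cells can respond as well.

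Each value below is a log2 ratio of peptide-injected over uninjected thymocytes, centred on its array's median, so 1 unit is a 2-fold difference. The deposited ratios carry no intensities, so no gene has a level and the thymocyte label could not be checked against marker levels. Centring moved little, since array medians lay between -0.018 and 0.015. In 3 arrays the peptide RNA was in Cy5 and in 3 in Cy3, by the titles. Correlations over all probes were positive in all 9 pairs of opposite dye (0.133 to 0.419) and all 6 pairs of the same dye (0.185 to 0.662). Arrays of opposite dye thus share one direction, but uninjected over peptide would give the same correlations. Peptide over uninjected was taken because Nr4a1 and Gadd45b were then higher with peptide, so this direction is likely rather than stated.

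The arrays fell into 2 sets by their slide numbers. Replicates 3 to 6 were on slides 9 to 12 and correlated at 0.366 to 0.662 with each other. Replicates 1 and 2 were on slides 13-5 and 13-6, correlated at only 0.150 with each other and at 0.133 to 0.420 with the other 4. Over all probes, replicate 1 correlated at 0.712 with replicate 1 of the 3 h group, and replicate 2 at 0.689 with replicate 2 of that group, each time with the same dye. Both values are above those with any other 6 h array (0.133 to 0.261 and 0.150 to 0.420). With the same-dye array on slides 13-7 and 13-8 of the 12 h group they correlated at 0.530 and 0.431. The titles give some slide numbers at more than 1 time, so whether these 2 arrays are labelled with the right time was not tested. Counts on slides 9 to 12 alone are therefore also given over all probes and for some lists. For genes whose change differs by over 1.5 times between the sets, the means of both are given. All 753 called probes had the same sign in both sets, and 691 of them had the same sign on all 6 arrays. They were called on the mean of these same 6 arrays, which favours such agreement, so it does not test slides 13-5 and 13-6.

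**Figure D1:**
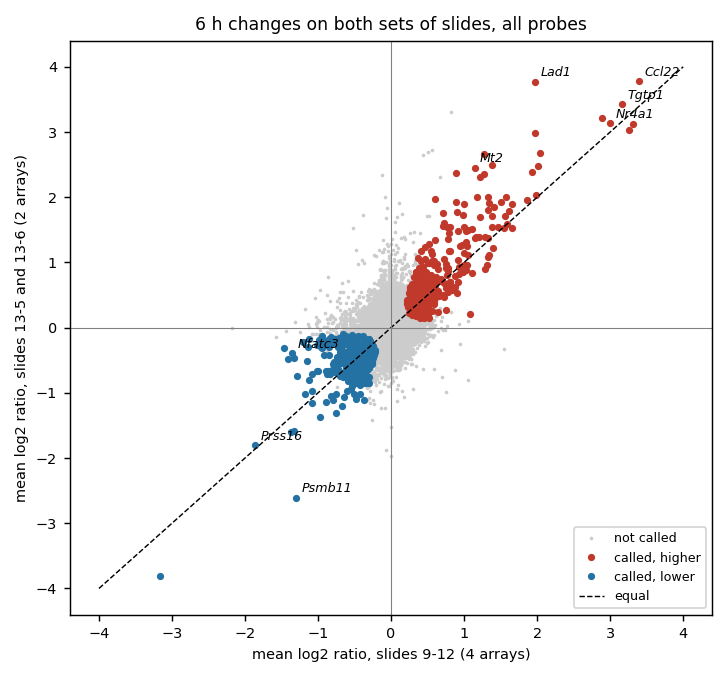
Mean log2 ratio on slides 13-5 and 13-6 (2 arrays, vertical axis) against the mean on slides 9 to 12 (4 arrays, horizontal axis) for all 16463 probes, with called probes in red (335, higher) and blue (418, lower). Every called probe lies at the lower left or the upper right, which a call on the mean of both sets favours. Of the 753, 417 have the larger mean on slides 13-5 and 13-6. The lone blue point at the far lower left is a probe without a gene name.

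At 6 h, limma called 753 of 16463 probes at a Benjamini-Hochberg adjusted p under 0.05, which is 4.57% of all probes. Of these, 335 were higher in peptide-injected thymocytes (2.03%) and 418 lower (2.54%). The large differences were mostly upward: 69 probes were at least 2-fold higher and 15 at least 2-fold lower. All 84 kept one direction on all 6 arrays, which their call on the same arrays favours. Over all probes the median log2 change was 0.01, and the 5th and 95th percentiles were -0.28 and 0.25. On slides 9 to 12 alone, 1906 probes (11.6%) were called, 730 of the 753 among them. These slides are part of the 6 arrays of the main call, which favours that overlap. On slides 13-5 and 13-6 alone, 0 were called by limma (1055 at an unadjusted p under 0.05). Without replicate 3, 4, 5 or 6 the count was 320, 388, 279 or 334. With the slide set as a random block it was 480, and 15 of the 87 called genes named below lost their call. In 1 fit of the 18 arrays of all times it was 525, and 21 of the 87 lost theirs (adjusted p up to 0.818 over both settings).

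The 12 genes with the highest called probes were Ccl22, Tgtp1, Tnfrsf9 (1 of its 2 probes, which disagree), Gadd45b, Nr4a1, Tnfrsf4, Lad1, Tnfrsf19, Irf4, Bhlhe40, Gbp2b and Gbp2. They hold chemokine and TNF receptor superfamily genes, receptor-induced transcription factors and interferon-induced GTPases. The 12 that fell most were Prss16, Psmb11, Gas6, Ccl25, Scd1, Pax1, Bach1, Slc40a1, Nfatc3, Tet1, Rasa3 and Klf3. Prss16, Psmb11, Ccl25 and Pax1 are best known from thymic epithelium, which makes up a small part of the organ. In bulk RNA, fewer cells of a type and less RNA per cell cannot be told apart.

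**Figure D2:**
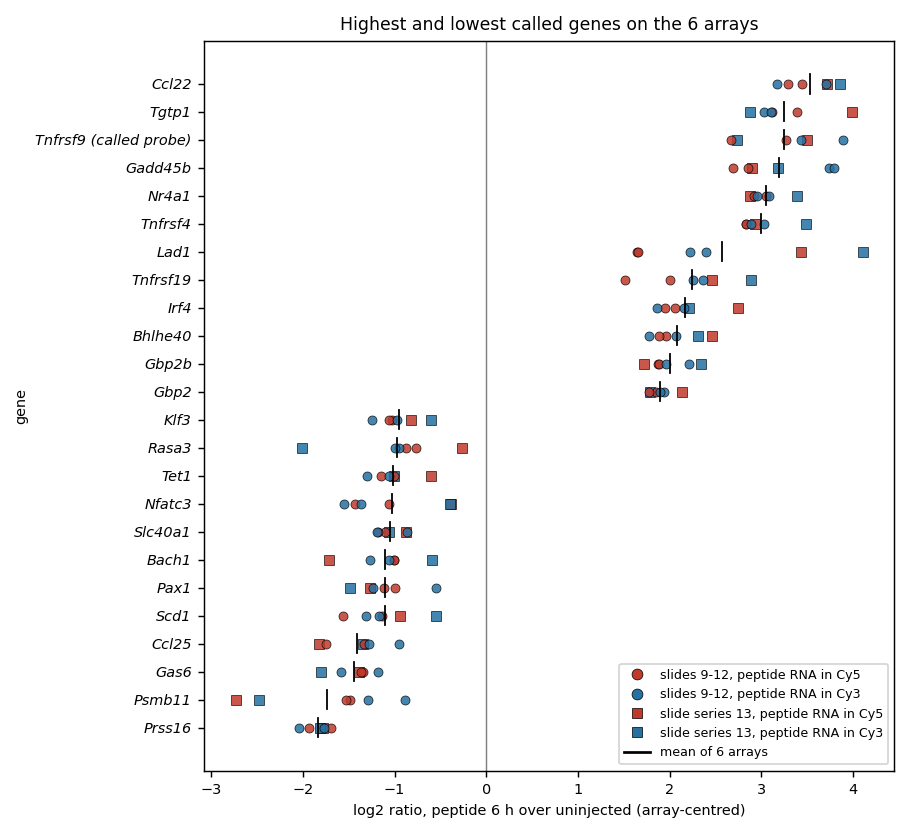
Log2 ratio (peptide 6 h over uninjected, horizontal axis) of the 12 highest and 12 lowest called genes on each of the 6 arrays, with a bar at the mean. No array of any gene crosses 0, and Lad1 (1.64 to 4.11) and Psmb11 (-2.73 to -0.88) spread most widely between the slide sets.

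Nr4a1, the gene by which the study reads HDAC7 activity, was measured first. Its log2 ratio was 2.87 on the lowest of the 6 arrays, 3.00 at the median and 3.39 on the highest. All 6 arrays lay close together and far above 0. The mean was 3.04 ± 0.07 (SE from limma, n = 6 arrays), or 8.25-fold higher with peptide, with a limma adjusted p of 1.75e-06. The rise of this gene was used to read the direction of the ratios, so its sign is not a separate result. Its mean was 3.00 on slides 9 to 12 and 3.13 on slides 13-5 and 13-6. Of its relatives, Nr4a2 rose by 1.38, and Nr4a3 was at 1.65 without passing the test.

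The promoters of Nr4a1 and Gadd45b are shown because both genes rose strongly at all 3 times. They span 250 bases before to 50 after the transcription start (RefSeq, build GRCm38.p6; Nr4a1 at chr15:101266596-101266895, plus strand, Gadd45b at chr10:80929841-80930140, plus strand). Capitals mark matches to GCGNGGGCG, the binding motif of EGR factors, read on either strand, and in Gadd45b also TATAAA, the TATA box.
Nr4a1: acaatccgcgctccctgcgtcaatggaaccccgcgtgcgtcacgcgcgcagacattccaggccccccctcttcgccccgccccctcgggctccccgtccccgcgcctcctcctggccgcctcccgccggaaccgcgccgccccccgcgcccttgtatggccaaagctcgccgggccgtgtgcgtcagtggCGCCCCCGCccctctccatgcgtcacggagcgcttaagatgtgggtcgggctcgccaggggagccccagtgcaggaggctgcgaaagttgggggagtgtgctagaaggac
Gadd45b: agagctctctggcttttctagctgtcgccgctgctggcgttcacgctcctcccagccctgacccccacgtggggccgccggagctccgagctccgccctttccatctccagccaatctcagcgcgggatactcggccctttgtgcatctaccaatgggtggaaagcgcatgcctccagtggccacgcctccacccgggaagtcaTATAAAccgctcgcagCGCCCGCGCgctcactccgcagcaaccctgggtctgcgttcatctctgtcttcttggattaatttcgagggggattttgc
The EGR letters occur in 5.55% of the 27025 promoters of the same length. No match to the consensus of MEF2 factors lies in the Nr4a1 window, which says only that these letters are not within it.

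Of 35 measured immediate early and receptor-induced transcription factors, 16 rose and 0 fell, with a list median of 0.47 against 0.01 over all probes. Over all probes 2.03% were called higher and 2.54% lower, and each list count here and below stands beside those shares. Irf4, a factor that scales with receptor signal strength, rose by 2.16 ± 0.11 (1.86 to 2.75 on the 6 arrays, adjusted p = 4.40e-05). Bhlhe40, a basic helix-loop-helix repressor, rose by 2.08 ± 0.10 (1.78 to 2.46, adjusted p = 3.33e-05). No array of either gene was below 1.7. Other members that rose, named here and below after their values were seen, were Irf8 (1.67), the AP-1 subunits Fosl2 (1.58), Fos (1.18) and Junb (1.07), the zinc finger factors Egr2 (1.25) and Egr1 (1.16), and their corepressor Nab2 (1.02). Egr3 (0.21), Egr4 (0.07) and Myc (0.25) did not pass the test. On slides 9 to 12 alone 19 members rose and 0 fell.

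Of 21 measured MAP kinase phosphatases and feedback inhibitors, 8 rose and 0 fell (list median 0.23). Socs3, an inhibitor of cytokine receptor signalling, rose by 1.20 ± 0.09 (0.78 to 1.56, adjusted p = 0.000302). Socs1, an inhibitor of interferon signalling, rose by 0.95 ± 0.12 (0.29 to 1.78, adjusted p = 0.00483), and Rgs1, a brake on G protein signalling, by 0.97 ± 0.14 (0.51 to 1.72, adjusted p = 0.00898). All 6 arrays of these 3 genes were above 0. Rgs1 had means of 0.77 on slides 9 to 12 and 1.35 on slides 13-5 and 13-6. The call of Rgs1 was lost without replicate 6 (adjusted p = 0.0511). Dusp4 (0.84), Dusp1 (0.65) and Spry1 (0.60) also rose, while Dusp6 (-0.25) and Spry2 (-0.11) did not pass.

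Surface receptors and secreted factors of T cell activation gave some of the highest ratios. Ccl22, a chemokine that draws CCR4-bearing cells, had the highest mean of all named genes. It was 3.17 on the lowest array, 3.57 at the median and 3.85 on the highest. Its mean was 3.53 ± 0.10, or 11.5-fold higher with peptide (adjusted p = 1.75e-06). Tnfrsf4 (OX40), a costimulatory receptor, was 2.83 on the lowest array, 2.91 at the median and 3.48 on the highest, with a mean of 3.00 ± 0.08 (adjusted p = 1.75e-06). Replicate 2 stood above the other 5 arrays for this gene. Tnfrsf19 (TROY) rose by 2.25 ± 0.13 (1.52 to 2.88, adjusted p = 8.19e-05).

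Tnfrsf9 (4-1BB), another costimulatory receptor, is represented by 2 probes that disagree. The first in file order averaged 0.04 (-0.26 to 0.41, adjusted p = 0.856) and the second 3.25 ± 0.16 (2.67 to 3.89, adjusted p = 3.46e-05). Which of them reports the transcript cannot be told from the ratios.

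Of 37 measured activation receptors, costimulatory molecules and cytokines, 18 rose and 0 fell, with a median of 0.35. Tnfrsf18 (GITR) rose by 1.55 ± 0.10 (1.23 to 1.86, adjusted p = 0.000166). Cd69, an early activation marker that holds cells in the thymus, was 1.20 on the lowest array, 1.40 at the median and 2.36 on the highest, and replicate 2 was again apart from the rest. Its mean was 1.53 ± 0.13 (adjusted p = 0.000773). The inhibitory ligand Cd274 (PD-L1) rose by 1.49, the cytotoxic protease gene Gzmb by 1.49, the chemokine gene Xcl1 by 1.44, the cytokine gene Tnf by 1.24 and the receptor chain gene Il2rb by 1.04. Cytokine genes of peripheral T cell activation moved little: Il2 rose by 0.47 and Ifng by 0.37. Ctla4 (0.29), Icos (0.03), Il4 (0.00) and Il10 (0.01) did not pass. Lad1, an anchoring filament protein gene of epithelia, rose by 2.57 ± 0.30 (adjusted p = 0.0033), with means of 1.98 on slides 9 to 12 and 3.77 on slides 13-5 and 13-6.

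NF-kB genes, which carry signals from the antigen receptor and from TNF receptors, gave 7 rises and 1 fall among 14 measured (median 0.53). Nfkb2, the subunit of the noncanonical pathway, was 1.13 on the lowest array, 1.71 at the median and 2.05 on the highest. Its mean was 1.65 ± 0.10 (adjusted p = 8.23e-05). Rel rose by 0.99 ± 0.16 (0.52 to 1.58, adjusted p = 0.0123), with means of 0.71 on slides 9 to 12 and 1.56 on slides 13-5 and 13-6. The inhibitor gene Nfkbia rose by 0.77 and the adaptor gene Traf1 by 0.78, while Cflar, an inhibitor of caspase-8, fell by 0.49. Birc3, an apoptosis inhibitor, rose by 0.81 ± 0.07 by its first probe (adjusted p = 0.00059), whereas its second averaged 0.24 (adjusted p = 0.384).

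The Nfkb2 promoter (chr19:46304487-46304786, plus strand, RefSeq, GRCm38.p6) is shown because its own letters hold the NF-kB motif. Capitals mark matches to the NF-kB consensus on either strand, including overlapping ones. It matches 4.35% of all promoters.
Nfkb2: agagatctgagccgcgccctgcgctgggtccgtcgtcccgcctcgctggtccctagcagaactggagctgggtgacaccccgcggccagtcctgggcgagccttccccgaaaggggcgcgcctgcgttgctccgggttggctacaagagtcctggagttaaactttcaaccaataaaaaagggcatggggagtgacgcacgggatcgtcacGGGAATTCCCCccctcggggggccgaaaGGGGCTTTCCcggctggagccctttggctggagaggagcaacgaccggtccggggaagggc

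Interferon-induced genes formed the group with the highest median. Of 22 measured genes of the interferon gamma response, 15 rose and 0 fell, with a median of 0.85. Tgtp1, a GTPase that guards against intracellular parasites, was 2.87 on the lowest array, 3.11 at the median and 3.99 on the highest. Its mean was 3.25 ± 0.11, or 9.52-fold higher with peptide (adjusted p = 4.84e-06). Gbp2, a guanylate-binding protein, rose by 1.90 ± 0.07 (1.78 to 2.14, adjusted p = 4.84e-06), and its neighbour Gbp2b by 2.00 ± 0.07 (1.72 to 2.34, adjusted p = 4.84e-06). The 6 arrays lay close together for both. Tgtp1, the Gbp genes and the Irgm genes have near-identical relatives, and probes may read more than 1 of them.

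Other called members of this list lay lower than Tgtp1. The T cell chemokine gene Cxcl9 rose by 1.64 ± 0.19 (0.98 to 2.84, adjusted p = 0.0033), with means of 1.28 on slides 9 to 12 and 2.36 on slides 13-5 and 13-6. Irf1, a transcription factor of this response, rose by 1.61, Gbp3 by 1.61, Irgm2 by 1.59, Igtp by 1.53 and Irgm1 by 1.49. Cxcl10 rose by 0.85 ± 0.16 (0.11 to 1.79, adjusted p = 0.0255), a call lost without replicate 4 or 5 (adjusted p up to 0.0977), with means of 0.61 on slides 9 to 12 and 1.35 on slides 13-5 and 13-6. Gbp4 (0.02), Ifi47 (0.07) and Nos2 (-0.03) did not pass. Slides 9 to 12 alone gave the same count, 15 up and 0 down.

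Among 20 measured genes of the type I interferon response, 13 rose and 0 fell (median 0.51). Rtp4, a chaperone of receptor proteins, rose by 1.34 ± 0.07 (1.16 to 1.54, adjusted p = 4.61e-05). Isg15, a ubiquitin-like modifier, rose by 1.22 ± 0.07 (0.92 to 1.51, adjusted p = 8.19e-05), and Irf9, the DNA-binding part of the ISGF3 complex, by 0.98 ± 0.07 (0.82 to 1.23, adjusted p = 0.000232). No array of these 3 genes was near 0. Ifit1 (0.94) and Oasl1 (0.65) rose, whereas Ifit2 (-0.06), Ifit3 (-0.10) and Rsad2 (-0.07) did not pass. Without 1 array or under another setting that used more than slides 13-5 and 13-6, between 6 and 15 members of this list were called.

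Promoters of 4 of these genes are shown because they moved together and their windows hold the same interferon motif. They are Tgtp1 (chr11:48992197-48992496, minus strand), Gbp2b (chr3:142594597-142594896, plus strand), Gbp2 (chr3:142620413-142620712, plus strand) and Isg15 (chr4:156200769-156201068, minus strand), all from RefSeq, GRCm38.p6. Capitals mark GAAANNGAA, the core of the interferon-stimulated response element (ISRE), on either strand, with overlapping matches in Isg15. In Tgtp1 capitals also mark TTCNNNGAA, the gamma-activated site (GAS) bound by STAT dimers, and in Gbp2 also TGANTCA, the AP-1 motif. Gbp2b holds an AP-1 match too, TGATTCA after the transcription start, which is left in lower case.
Tgtp1: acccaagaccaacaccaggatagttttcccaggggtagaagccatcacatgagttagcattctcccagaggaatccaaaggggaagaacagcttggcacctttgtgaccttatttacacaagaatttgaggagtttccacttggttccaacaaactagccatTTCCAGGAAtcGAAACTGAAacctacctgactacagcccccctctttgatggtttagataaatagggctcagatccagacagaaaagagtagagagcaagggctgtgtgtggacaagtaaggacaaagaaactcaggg
Gbp2b: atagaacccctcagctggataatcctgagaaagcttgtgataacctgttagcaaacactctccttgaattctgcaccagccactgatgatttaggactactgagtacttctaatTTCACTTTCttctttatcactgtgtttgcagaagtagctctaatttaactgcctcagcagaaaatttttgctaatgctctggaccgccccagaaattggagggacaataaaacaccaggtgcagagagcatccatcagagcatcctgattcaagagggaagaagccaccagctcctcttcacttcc
Gbp2: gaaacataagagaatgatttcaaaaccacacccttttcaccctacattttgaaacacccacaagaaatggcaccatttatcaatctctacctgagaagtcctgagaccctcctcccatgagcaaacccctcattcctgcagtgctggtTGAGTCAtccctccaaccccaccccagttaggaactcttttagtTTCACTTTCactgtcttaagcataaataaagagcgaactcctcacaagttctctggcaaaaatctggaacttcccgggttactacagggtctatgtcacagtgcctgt
Isg15: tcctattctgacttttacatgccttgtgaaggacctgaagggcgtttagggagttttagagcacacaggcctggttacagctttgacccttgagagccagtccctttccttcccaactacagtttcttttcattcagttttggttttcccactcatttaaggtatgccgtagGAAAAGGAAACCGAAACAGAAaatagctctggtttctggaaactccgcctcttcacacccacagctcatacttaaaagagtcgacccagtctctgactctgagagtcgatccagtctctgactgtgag
The ISRE core occurs in 13 of the 47 promoters of called genes that were at least 2-fold higher (27.7%), against 8.57% of all 27025 promoters. The GAS letters occur in 11 of the 47 (23.4%), against 8.47% of all promoters. For AP-1 the shares were 14.9% of the 47 and 7.93% of all, for EGR 12.8% and 5.55%, and for TATAAA 29.8% and 14.2%. The NF-kB consensus was in 12.8% of the 47 against 4.35% of all, that of MEF2 in 6.38% against 3.26%, TGACGTCA (the cyclic AMP response element) in 2.13% against 1.88%, and GGAAAA (NFAT) in 25.5% against 23.6%. AAAGGTCA, the site of Nr4a1 itself, was in 0 of the 47, against 1.46% of all promoters. The ISRE and GAS motifs were added after the interferon genes were seen to rise, so these shares are descriptions.

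Some called genes sat side by side among the measured genes (order by the RefSeq table of GRCm38.p6, runs chosen after their values were seen). There were 20 runs of at least 2 neighbours that rose and 18 of neighbours that fell, and no number expected by chance was computed. Gbp7, Gbp3, Gbp2b and Gbp2 formed a run of 4 called genes, at 0.52, 1.61, 2.00 and 1.90. Another run of 4 held Insl6, Plgrkt, Cd274 and Pdcd1lg2, at 0.90, 0.45, 1.49 and 1.23, and Cd274 and Pdcd1lg2 encode the ligands of PD-1. Sdf4 (0.29), Tnfrsf4 (3.00) and Tnfrsf18 (1.55) were adjacent, as were the pairs Irgm1 and Tgtp1, Igtp and Irgm2, Tnf and Lta, Gzmc and Gzmb, and Psme2 and Irf9. Among the runs that fell were the keratin genes Krt8 and Krt18 (-0.51 and -0.43), the complement genes C1qb and C1qc (-0.34 and -0.57), the desaturase genes Scd2 and Scd1 (-0.63 and -1.11) and the apolipoprotein genes Apoc1 and Apoe (-0.38 and -0.70). Overlapping transcripts and related sequences can give neighbours a shared signal on arrays.

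Antigen presentation moved in part. B2m, the light chain of MHC class I, rose by 0.64 ± 0.08 (0.36 to 1.02, adjusted p = 0.00343), and Tapbp, which loads peptides onto class I, by 0.84 ± 0.11 (0.32 to 1.41, adjusted p = 0.00443). The other 6 of 8 measured class I genes did not pass. Of 33 proteasome genes 2 rose, against 2.03% of all probes, and these were the 2 subunits of the interferon-induced activator PA28. Psme2 rose by 0.98 ± 0.10 (adjusted p = 0.00155) and Psme1 by 0.52 ± 0.08 (adjusted p = 0.00966, and 0.062 without replicate 5). B2m had means of 0.73 on slides 9 to 12 and 0.48 on slides 13-5 and 13-6, and Psme1 of 0.59 and 0.39. The immunoproteasome genes Psmb9 (0.51) and Psmb10 (0.79) rose as well, while Psmb8 (0.15), Tap1 (0.20) and Tap2 (0.10) did not pass. Of 12 class II genes 0 rose and 1 fell, H2-DMb1, by 0.47 ± 0.07 (adjusted p = 0.0103), a call lost without replicate 5 or 6 (adjusted p up to 0.0582).

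**Figure D3:**
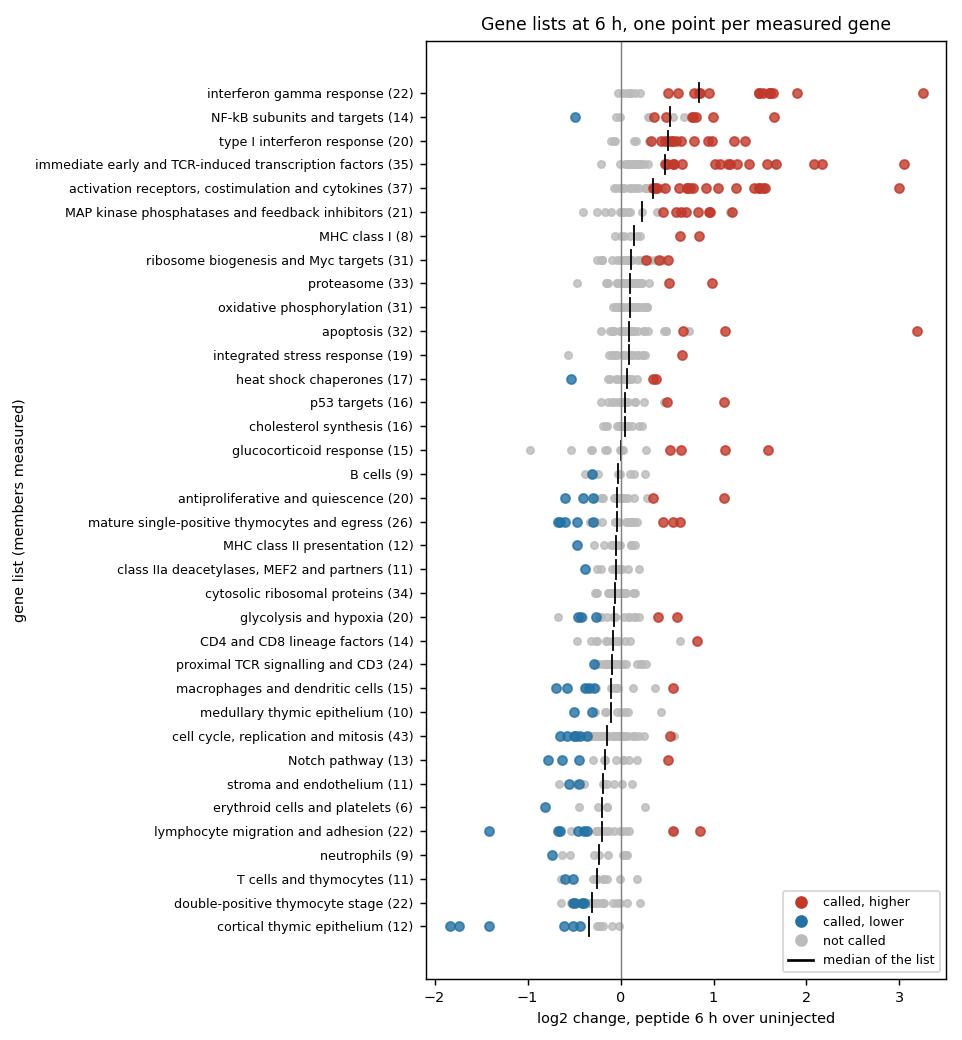
Log2 change at 6 h (peptide over uninjected, horizontal axis) of every measured member of the 36 gene lists, with the number measured beside each name, called genes in red (higher) or blue (lower), other genes in grey and a bar at the list median. The interferon gamma list has the highest median (0.85) and the cortical epithelium list the lowest (-0.34).

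Hdac7 itself was lower with peptide. It was -0.80 on the lowest array, -0.32 at the median and -0.22 on the highest, and replicate 4 was apart from the other 5. The mean was -0.39 ± 0.07, or 1.31-fold lower with peptide (adjusted p = 0.0268). This call was lost without any 1 of replicates 2 to 6 (adjusted p 0.0592 to 0.113), with the slide set as a random block (0.0559) and in the fit of 18 arrays (0.0838). The means were -0.44 on slides 9 to 12 and -0.28 on slides 13-5 and 13-6. Mef2d, its partner, averaged -0.06 ± 0.07 (-0.35 to 0.28, adjusted p = 0.697). None of the other 10 measured class IIa deacetylase and MEF2 genes was called, among them Hdac5 (-0.02), Hdac9 (-0.05) and Mef2c (0.01), and the list median was -0.05.

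Genes of thymocyte death were called in 3 of 32 cases, all upward, with a median of 0.10, against 2.03% of all probes called higher. Gadd45b, a stress-induced regulator of MAP kinase signalling, was 2.69 on the lowest array, 3.04 at the median and 3.79 on the highest. Its mean was 3.19 ± 0.09, or 9.12-fold higher (adjusted p = 1.75e-06), and both of the highest arrays had peptide RNA in Cy3 on slides 9 to 12. Its rise too was used to read the direction of the ratios, so its sign is not a separate result. Gadd45g rose by 1.12 ± 0.10 (adjusted p = 0.000824) and Zc3h12a, an RNA-degrading enzyme, by 0.67 ± 0.06 (adjusted p = 0.00101). Bcl2l11 (Bim), the main killer of negatively selected thymocytes in mice, was at 0.74, and Bak1 was at 0.49, neither passing the test. Bcl2 (0.15), Bbc3 (0.00), Mcl1 (0.04) and Fas (0.25) did not pass either. Slides 9 to 12 alone, with 11.6% of all probes called, gave 6 rises and 1 fall in this list. Of 16 p53 target genes 2 rose, the cell cycle inhibitor Cdkn1a by 1.12 ± 0.08 (0.90 to 1.49, adjusted p = 0.000358) and Plk2 by 0.49 ± 0.09 (adjusted p = 0.0252). The call of Plk2 was lost without any 1 of replicates 3 to 6 (adjusted p up to 0.0854) and in the fit of 18 arrays, and its means were 0.35 on slides 9 to 12 and 0.78 on slides 13-5 and 13-6.

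Genes of the double-positive stage, the CD4+CD8+ cells that undergo selection, leaned downward. Of 22 measured, 4 fell and 0 rose, with a median of -0.31. Rag2, which rearranges receptor genes, fell by 0.51 ± 0.10 (adjusted p = 0.0256), Lef1, a factor of this stage, by 0.49 ± 0.10 (adjusted p = 0.0357), and Aqp11, a water channel, by 0.42 ± 0.06 (adjusted p = 0.00801). The calls of Rag2 and Lef1 were lost without any 1 of replicates 3 to 6 (adjusted p up to 0.137), and that of Lef1 also without replicate 2 and with the random block. The fit of 18 arrays called none of Rag2, Lef1 and Aqp11 (adjusted p up to 0.383). Rag2 had means of -0.36 on slides 9 to 12 and -0.80 on slides 13-5 and 13-6, and Lef1 of -0.62 and -0.25. Rag1 (-0.64), Cd4 (-0.26), Cd8a (-0.25) and Dntt (-0.19) did not pass. On slides 9 to 12 alone 10 members fell and 0 rose. Of 24 genes of proximal receptor signalling 1 was called (median -0.09), a share near the 4.57% of all probes. This was Csk, the kinase that restrains Lck, which fell by 0.28 ± 0.05 (adjusted p = 0.0282). Its call was lost without any 1 of replicates 2 to 6 (adjusted p up to 0.128), with the random block (0.0561) and in the fit of 18 arrays (0.790).

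Notch pathway genes, which act in early thymocytes, gave 3 falls and 1 rise among 13. Dtx1, a direct Notch target, fell by 0.78 ± 0.09 (-1.28 to -0.46, adjusted p = 0.00348), and Notch3 by 0.45. Notch1 fell by 0.62 ± 0.13 (-1.27 to 0.11, adjusted p = 0.0358), below 0 on 5 of 6 arrays. Lfng, which modifies Notch, rose by 0.51 ± 0.10 (-0.02 to 0.71, adjusted p = 0.0268), above 0 on 5 of 6 arrays. The calls of Notch1 and Lfng were lost without any 1 of replicates 3 to 6, and that of Lfng also without replicate 2 (adjusted p up to 0.159). With the random block both calls were lost (0.0609 and 0.0515), and in the fit of 18 arrays that of Notch1. The means were -0.85 and -0.18 for Notch1, 0.64 and 0.24 for Lfng, and -0.64 and -1.06 for Dtx1, on slides 9 to 12 and on slides 13-5 and 13-6.

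Of 26 genes of mature single-positive cells, 5 fell and 3 rose (median -0.04). Klf2, the factor that drives exit, fell by 0.60 ± 0.07 (-0.82 to -0.26, adjusted p = 0.00364). Its target S1pr1, the receptor that leads cells out, fell by 0.65 ± 0.13 (-1.58 to -0.20, adjusted p = 0.0332), a call lost without replicate 3, 4 or 5 (adjusted p up to 0.110) and with the random block (0.0588). Itgb7, an integrin of gut homing, fell by 0.67 ± 0.09 (-1.04 to -0.38, adjusted p = 0.00661). S1pr1 had means of -0.53 on slides 9 to 12 and -0.89 on slides 13-5 and 13-6, and Itgb7 of -0.54 and -0.94. The chemokine receptor Ccr7, gained after selection, rose by 0.57. In the list on migration and adhesion 6 of 22 fell and 2 rose (median -0.20), and Cxcr4 was among the falls, at -0.46. Of 14 CD4 and CD8 lineage genes only Runx3, a factor of the CD8 lineage, passed, rising by 0.82 ± 0.06 (0.70 to 1.00, adjusted p = 0.000369). Zbtb7b, the CD4 lineage factor, was at -0.47 and Gata3 at 0.10.

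Cell cycle genes gave 6 falls and 1 rise among 43 (median -0.14). Among the falls were S phase genes, a grouping made after the values were seen. Cdk2 fell by 0.65 ± 0.12 (adjusted p = 0.0268), Cdc25a, the phosphatase that activates it, by 0.58 ± 0.08 (adjusted p = 0.00558), and the replicative helicase genes Mcm2 and Mcm6 by 0.48 and 0.51. Ccnd2, a G1 cyclin, rose by 0.53 ± 0.11 (adjusted p = 0.0326). Mitotic genes such as Plk1 (-0.16), Bub1 (-0.08) and Mki67 (-0.06) did not pass. The calls of Cdk2 and Ccnd2 were lost without any 1 of 4 arrays (adjusted p up to 0.148), that of Cdk2 also in the fit of 18 arrays (0.466), and that of Ccnd2 with the random block (0.0695). Cdk2 had means of -0.87 on slides 9 to 12 and -0.22 on slides 13-5 and 13-6. On slides 9 to 12 alone 17 members fell and 2 rose. Of 20 antiproliferative and quiescence genes, 3 fell and 2 rose, the falls being Klf2, Foxp1 (-0.30) and Pik3ip1 (-0.41 ± 0.06, adjusted p = 0.0126, lost without replicate 3, 5 or 6 with an adjusted p up to 0.0655, and in the fit of 18 arrays at 0.148).

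Markers of cortical thymic epithelium, the cells that present ligands for positive selection, had the lowest median of all lists (-0.34), with 6 of 12 lower and 0 higher. Prss16, a serine protease of these cells, was -2.04 on the lowest array, -1.80 at the median and -1.69 on the highest. Its mean was -1.84 ± 0.07, or 3.58-fold lower with peptide (adjusted p = 4.84e-06), and it was the named gene that fell most. Psmb11, the thymoproteasome subunit, fell by 1.73 ± 0.23 (-2.73 to -0.88, adjusted p = 0.0056), with means of -1.30 on slides 9 to 12 and -2.61 on slides 13-5 and 13-6. Ccl25, the chemokine that draws progenitors, fell by 1.41 ± 0.09 (-1.82 to -0.95, adjusted p = 0.000115). The keratin genes Krt8 and Krt18 fell by 0.51 and 0.43, and the Notch ligand gene Dll4 by 0.61. Krt8 was not called in the fit of 18 arrays (adjusted p = 0.416). Foxn1, the master factor of epithelium, was at -0.19 and Ly75 at -0.02, and neither passed. Outside the list, Pax1, another epithelial factor, fell by 1.11 ± 0.12 (adjusted p = 0.00166).

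Other cell types were read by their own markers. Over all probes 2.54% were called lower, so in lists this short a single call says little about the cell type. Of 10 medullary epithelial genes 2 fell, Epcam by 0.50 ± 0.08 (adjusted p = 0.0103) and Cldn4 by 0.31 ± 0.05 (adjusted p = 0.0189), while Aire (-0.17) and Krt5 (-0.27) did not pass. Of 15 macrophage and dendritic cell genes 5 fell, led by Apoe (-0.70 ± 0.10, adjusted p = 0.00891) and C1qc (-0.57 ± 0.07, adjusted p = 0.00286), and 1 rose, the heme-degrading enzyme gene Hmox1 (0.56 ± 0.10, adjusted p = 0.0229). Gas6 and Slc40a1 are in no marker list and come from the 12 genes that fell most. Gas6, a ligand that marks dead cells for uptake, fell by 1.45 ± 0.08 (-1.80 to -1.19, adjusted p = 8.19e-05), and the iron exporter gene Slc40a1 by 1.05 ± 0.07 (-1.19 to -0.87, adjusted p = 0.000189). Falls were also found for 2 of 11 stromal genes, Col1a2 (-0.56) and Dcn (-0.44), for 1 of 9 neutrophil genes, Camp (-0.74), for 1 of 6 erythroid and platelet genes, Alas2 (-0.81), and for 1 of 9 B cell genes, Cd79a (-0.31). Of 11 T cell and thymocyte genes 2 fell, Thy1 (-0.60 ± 0.06, adjusted p = 0.00097) and Rag2, with a list median of -0.25. Slides 9 to 12 alone, with 11.6% of all probes called, gave 6 falls and 0 rises among neutrophil genes. Stromal genes gave 5 falls and 0 rises there. The part of these cell types in the results above was not tested. The calls of Cldn4, Cd79a, Camp, Alas2, Col1a2 and Dcn were each lost without any 1 of 4 arrays (adjusted p up to 0.164), that of Hmox1 without replicate 3, 5 or 6 (up to 0.0920), and that of Apoe without replicate 5 (0.0579). The random block ended the calls of Cd79a, Alas2, Col1a2 and Dcn (adjusted p 0.0516 to 0.0591), and the fit of 18 arrays those of Cldn4, Cd79a, Apoe, Camp, Alas2 and Dcn (0.0774 to 0.818). Some of these changes were smaller on 1 set of slides. The mean of Alas2 was -1.13 on slides 9 to 12 and -0.17 on slides 13-5 and 13-6, that of Col1a2 -0.73 and -0.21, and that of Camp -0.95 and -0.32. Epcam had -0.42 and -0.66 on the same sets, and Hmox1 0.41 and 0.88.

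The remaining genes that fell most have varied roles. Scd1, a fatty acid desaturase, fell by 1.11 ± 0.12 (-1.56 to -0.54, adjusted p = 0.00185), and its neighbour Scd2 by 0.63. Bach1, a heme-regulated repressor, fell by 1.11 ± 0.12 (-1.71 to -0.59, adjusted p = 0.00214), and Hmox1 is a gene it is known to repress. Tet1, which oxidises methylcytosine, fell by 1.02 ± 0.08 (adjusted p = 0.000589), Klf3 by 0.96 ± 0.09 (adjusted p = 0.000988) and Rasa3, a Ras inhibitor, by 0.98 ± 0.15 (-2.01 to -0.27, adjusted p = 0.0102). Nfatc3, a calcium-regulated factor of double-positive cells, fell by 1.03 ± 0.17 (adjusted p = 0.0163), a call lost without any 1 of replicates 3 to 6 (adjusted p up to 0.0885). Its means were -1.35 on slides 9 to 12 and -0.39 on slides 13-5 and 13-6, those of Scd1 -1.29 and -0.74, and those of Klf3 -1.08 and -0.71. The lowest probe of all, M200005778, is not named in the annotation used and fell by 3.38 ± 0.12 (-3.95 to -2.97, adjusted p = 4.84e-06).

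Lists of metabolism and stress were read for the rest of the cell. Over all probes 4.57% were called, and a list with few called members can lie near that share. None of 34 cytosolic ribosomal protein genes, 31 oxidative phosphorylation genes or 16 cholesterol synthesis genes was called by limma, with medians of -0.06, 0.10 and 0.05, while other settings called up to 2, 5 and 2 of them. Of 31 ribosome biogenesis genes 3 rose, Ppan (0.51 ± 0.08, adjusted p = 0.0128), Polr1c (0.42 ± 0.06, adjusted p = 0.00898) and Fbl (0.28 ± 0.06, adjusted p = 0.0361). Of 20 glycolysis and hypoxia genes 2 rose and 3 fell, among them Ndrg1 (0.61 by its first probe, adjusted p = 0.00817, and 0.00 by its second, adjusted p = 0.998), Tpi1 (-0.46) and Bnip3 (-0.42). Of 15 glucocorticoid response genes 4 rose, among them Mt2, a metallothionein (1.58 ± 0.27, 0.27 to 3.02, adjusted p = 0.016), and Dusp1, while Tsc22d3 (-0.32), Fkbp5 (-0.15) and Nr3c1 (-0.98) did not pass. Heat shock chaperones gave 2 rises, Hspa5 (0.35) and Cct3 (0.38), and 1 fall, Hspa1b (-0.53), among 17. Of 19 integrated stress response genes 1 rose, Cebpb (0.66 ± 0.10, adjusted p = 0.0112). Slides 9 to 12 alone, with 11.6% of all probes called, gave 5 rises and 4 falls among ribosome biogenesis genes. There glycolysis and hypoxia genes gave 3 rises and 8 falls, and glucocorticoid response genes 4 rises and 4 falls. Calls were lost without 1 array for Ppan, Fbl, Tpi1, Bnip3, Mt2, Hspa5, Cct3, Hspa1b and Cebpb (adjusted p up to 0.194). The random block ended the calls of Fbl, Tpi1, Bnip3 and Cct3 (0.0654 to 0.0977), and the fit of 18 arrays those of Fbl, Tpi1, Cct3 and Hspa1b (0.0680 to 0.593). Mt2 had means of 1.15 on slides 9 to 12 and 2.45 on slides 13-5 and 13-6, and Tpi1 of -0.62 and -0.14. On the same sets Ndrg1 had 0.48 and 0.86, Hspa1b -0.61 and -0.38, and Hspa5 0.29 and 0.47.

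The 3 times after injection were compared in 1 fit of 18 arrays. Uninjected thymocytes were the partner at each time, and whether they were the same RNA is not stated. In comparing the times, only the differences between them were tested. Against uninjected thymocytes, with each time fitted on its own, 446 probes (2.71%) were called at 3 h, 753 at 6 h and 557 (3.38%) at 12 h. All 6 arrays at 3 h carry slide numbers of series 13, and numbers 13-5 to 13-8 occur at more than 1 time, so time and slide set are in part confounded. Between 6 h and 3 h limma called 2 probes (0.0121%), Gbp2 and Gbp2b, while 854 had an unadjusted p under 0.05. This fit leaves out the correlation of 6 h replicates 1 and 2 with the same-dye 3 h arrays given above. With a block for the slide set by the labels 118 probes were called. Another grouping moved replicates 3 to 6 at 3 h out of series 13, against their labels, and had a dye term for each set. It gives those linked arrays of all times a term of their own, and 34 probes were called.

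Both called genes are induced by interferon. Gbp2 averaged 0.58 ± 0.17 at 3 h, 1.90 ± 0.13 at 6 h and 1.95 ± 0.49 at 12 h (SD, n = 6 arrays each). Its 6 h arrays did not overlap those at 3 h, and the difference was 1.32 (limma adjusted p = 0.0074). Gbp2b averaged 0.88 ± 0.28 at 3 h, 2.00 ± 0.23 at 6 h and 2.02 ± 0.49 at 12 h, with a difference of 1.12 between 6 h and 3 h (adjusted p = 0.0373). Leaving out 1 array ended the call of Gbp2b in 10 of 12 cases (adjusted p up to 0.145) and that of Gbp2 in 0 of 12. Tgtp1 averaged 1.20 ± 0.55 at 3 h, 3.25 ± 0.40 at 6 h and 3.19 ± 1.11 at 12 h, and its 6 h difference of 2.05 missed the threshold (adjusted p = 0.0514). The type I list had 2 called members at 3 h, 13 at 6 h and 5 at 12 h, and the interferon gamma list had 9, 15 and 11, all upward, each count from a fit of that time alone. The list medians were 0.10 at 3 h, 0.51 at 6 h and 0.80 at 12 h for type I, and 0.37, 0.85 and 0.98 for interferon gamma. Tgtp1, Gbp2, Cxcl9, Isg15 and Irf9 had 12 h means of 2.59, 1.66, 1.07, 1.12 and 0.47 on slides 13 to 16. On slides 13-7 and 13-8 they had 4.40, 2.53, 1.99, 2.34 and 1.55. Their 6 h means on slides 9 to 12 were 3.16, 1.86, 1.28, 1.15 and 1.00. Rtp4, Cxcl10 and Ifi27l2a had 12 h means of 2.105, 0.72 and 2.18 on slides 13 to 16. These lay above their 6 h means on slides 9 to 12 (1.40, 0.61 and 1.08).

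Receptor-induced genes were already high at 3 h. Nr4a1 averaged 3.06 ± 0.26 at 3 h, 3.04 ± 0.19 at 6 h and 1.75 ± 0.87 at 12 h. The fall of 1.29 between 6 h and 12 h passed (adjusted p = 0.0241), with 12 h means of 2.77 on slides 13-7 and 13-8 and 1.25 on slides 13 to 16. Irf4 averaged 2.88 ± 0.36, 2.16 ± 0.31 and 1.41 ± 0.37 at 3 h, 6 h and 12 h, and differed between 12 h and 6 h by -0.75 (adjusted p = 0.0413). Gadd45b averaged 3.49 ± 0.62, 3.19 ± 0.47 and 2.22 ± 0.23, and its 12 h difference of -0.97 also passed (adjusted p = 0.0261). Cd69 was at 2.53 ± 0.44, 1.53 ± 0.42 and 1.23 ± 0.38, and neither step passed (adjusted p = 0.199 for 6 h minus 3 h). Runx3 was at 0.04 ± 0.46, 0.82 ± 0.11 and 1.21 ± 0.29, again with neither step called. Prss16 stayed near one value, at -1.98 ± 0.24, -1.84 ± 0.13 and -1.96 ± 0.35.

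Between 12 h and 6 h, limma called 523 probes (3.18%), 168 higher at 12 h (1.02%) and 355 lower (2.16%). The largest rises were Arhgap20 (1.66), Ifi27l2a (1.60), S100a6 (1.50), Cpt1a (1.44), Krt8 (1.40) and Pls3 (1.39). S100a6, a calcium-binding protein gene, averaged -0.10 ± 0.22 at 6 h and 1.40 ± 0.52 at 12 h without overlap (adjusted p = 0.00061). Ifi27l2a, an interferon-induced gene, averaged 0.79 ± 0.51 at 6 h and 2.39 ± 0.40 at 12 h (adjusted p = 0.00064), with 6 h means of 1.08 on slides 9 to 12 and 0.21 on slides 13-5 and 13-6. Rtp4 averaged 1.34 ± 0.17 and 2.44 ± 0.59 (adjusted p = 0.0121). Klf2 averaged -0.60 ± 0.24 at 6 h and 0.42 ± 0.51 at 12 h without overlap (adjusted p = 0.00316). Leaving out 1 array ended the call of Krt8 in 9 of 12 cases and that of Arhgap20 in 6 of 12. Krt8 had 12 h means of 2.36 on slides 13-7 and 13-8 and 0.15 on slides 13 to 16. On the same sets Arhgap20 had 3.015 and 2.106, Ifi27l2a 2.81 and 2.18, and S100a6 2.03 and 1.08. Cpt1a had 0.92 and 1.37, and Pls3 0.96 and 1.21.

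The 6 largest falls between 12 h and 6 h rested on 1 set of slides. They were Gnb2 (-1.99), Ssr2 (-1.84), Maf1 (-1.80), Psmd3 (-1.78), Ptpn6 (-1.74) and Cdk4 (-1.73). For Gnb2, a G protein subunit gene, the 12 h mean was -2.89 on slides 13 to 16 and -0.10 on slides 13-7 and 13-8. Cdk4, a G1 kinase gene, had -2.73 and -0.35 on the same sets, and the other 4 genes had means from -2.93 to -2.29 on slides 13 to 16 and from -0.17 to 0.33 on the other 2. Within slide series 13 the 12 h minus 6 h difference of Gnb2 was 0.01. Fbl, a nucleolar methyltransferase gene, averaged 0.28 ± 0.08 at 6 h and -0.96 ± 0.63 at 12 h (adjusted p = 0.00771), with 12 h means of -1.34 on slides 13 to 16 and -0.19 on slides 13-7 and 13-8. At 6 h none of these genes but Fbl passed.

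**Figure D4:**
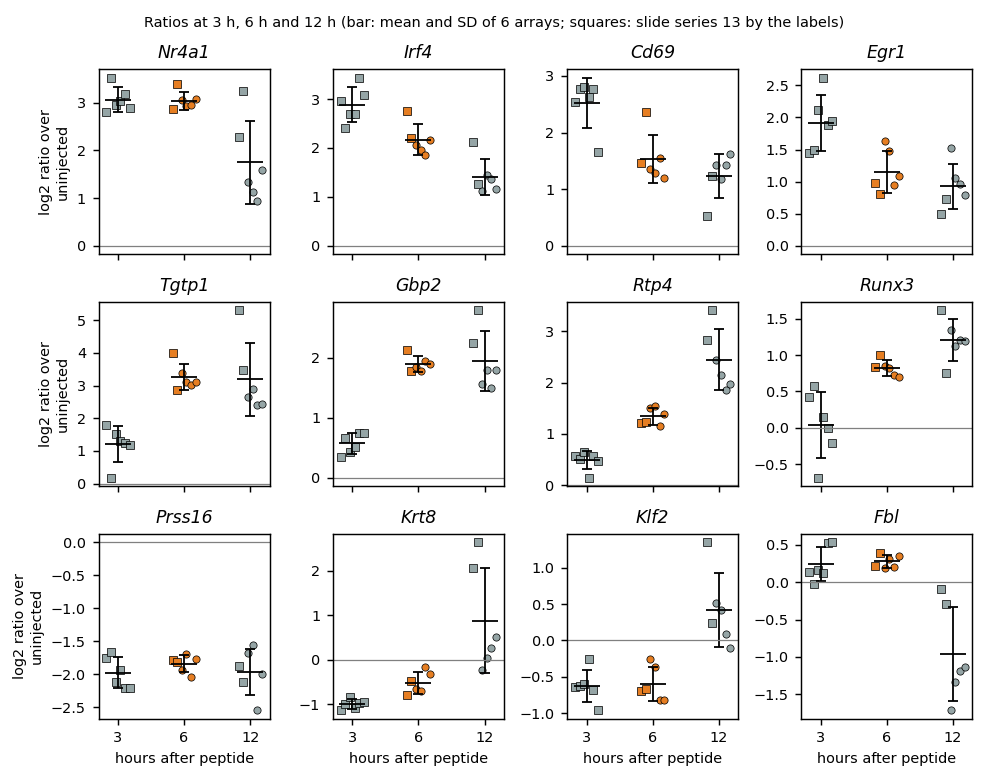
Log2 ratio over uninjected thymocytes (vertical axes) of 12 genes at 3 h, 6 h and 12 h after peptide, with a point per array, squares for slide series 13 by the labels, and the mean and SD of 6 arrays. Gbp2 and Tgtp1 lie higher at 6 h than at 3 h without overlap, Nr4a1 and Irf4 are high from 3 h, and the squares of Nr4a1, Krt8 and Fbl lie above the other 12 h arrays.

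The hybridoma arrays show which 6 h genes also move in a T cell line given receptor-like signals or an HDAC7 fusion. PMA and ionomycin mimic receptor signalling by activating protein kinase C and calcium entry, and HDAC7-VP16 joins the deacetylase to a strong viral activation domain. The labels of 1 HDAC7-VP16 array, replicate 1, name the empty virus in 1 field and HDAC7-VP16 in another, and it was kept. With PMA and ionomycin 2650 probes (16.1%) were called against untreated hybridoma, and with HDAC7-VP16 456 (2.77%), or 295 without replicate 1. Both groups carry a retrovirus, so these calls also hold any effect of the virus. Against 12 arrays of empty virus over untreated cells, 2057 probes were called with PMA and ionomycin and 447 with HDAC7-VP16. The gene values and overlaps given here are those against untreated cells. Of the 753 probes called at 6 h, 205 were called in the same direction with PMA and ionomycin, which is 27.2% of the 6 h calls and 7.74% of the PMA and ionomycin calls. A further 52 were called in the opposite direction. With HDAC7-VP16, 45 were called in the same direction (5.98% of the 6 h calls, 9.87% of the HDAC7-VP16 calls) and 23 in the opposite one. Of the 69 probes at least 2-fold higher at 6 h, 30 were higher and 3 lower with PMA and ionomycin, and 7 were higher and 4 lower with HDAC7-VP16. Over all 16463 probes, 1254 were called higher and 1396 lower with PMA and ionomycin, and 226 higher and 230 lower with HDAC7-VP16.

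Among the 12 genes highest at 6 h, 2 receptor-induced factors rose in all 3 systems. Nr4a1 rose by 3.04 at 6 h, 4.30 with PMA and ionomycin (adjusted p = 3.75e-05) and 2.59 with HDAC7-VP16 (adjusted p = 0.000187). Irf4 rose by 2.16 at 6 h, 3.45 with PMA and ionomycin (adjusted p = 6.33e-05) and 2.06 with HDAC7-VP16 (adjusted p = 0.000272). Gadd45b and Bhlhe40 rose with PMA and ionomycin, by 2.63 and 2.10, but were at 0.09 and -0.48 with HDAC7-VP16, where neither passed. Tgtp1 was at 0.16 with PMA and ionomycin and 0.13 with HDAC7-VP16, Gbp2b at 0.09 and 0.01, and Ccl22 at 0.28 and -0.03, none passing, whereas Gbp2 rose by 0.29 with PMA and ionomycin (adjusted p = 0.0378) and was at -0.04 with HDAC7-VP16. Itgb7 fell in all 3, by 0.67 at 6 h, 1.42 with PMA and ionomycin and 1.07 with HDAC7-VP16. Tnfrsf19 rose by 2.25 at 6 h but fell by 0.90 with HDAC7-VP16 (adjusted p = 0.00333). Differences between thymocytes and hybridoma were not tested.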

How the data were processed

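RNA of thymocytes from peptide-injected and uninjected DO11.10 mice was hybridised to 2-colour arrays of 16463 probes. Per the labels' protocols, aminoallyl-dUTP was incorporated into first-strand cDNA, and a Cy dye was then coupled to it. The authors deposited log2 ratios, 1 per probe and array, with 0 missing. Not given in the sources used here are the scanner, background correction, normalization, genome build, log base and direction. Base 2 was assumed. Arrays of opposite dye show only that the ratios share one direction, and peptide over uninjected is likely by the rises of Nr4a1 and Gadd45b. Dyes were taken from the titles, because the label fields give Cy3 for each channel.

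Here each array was centred on its median, and limma 3.58.1 (R 4.3.3, lmFit and eBayes) fitted each probe to a mean and a dye-orientation term. Each time was fitted alone, the differences between times over all 18 arrays, and each hybridoma group alone. Errors written ± are SEs at 6 h, and SDs where times are compared. Adjusted p-values are limma's, by Benjamini-Hochberg over all probes, and called means under 0.05. Low values could not be filtered, since no intensities are held, and the number of arrays limits precision. The platform annotation gave 14551 probes 1 symbol, 6 probes several and 1906 none, and 14272 matched RefSeq. Genes with several probes are given by the first in file order. The fit was tested on simulated data with independent errors for each array, so that test says nothing about the slide sets.

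Named genes are Nr4a1, Hdac7 and Mef2d, the 12 highest and 12 lowest called probes that have 1 symbol and one direction on at least 5 of 6 arrays, up to 3 called members of each list, and the 6 highest and 6 lowest called probes of each difference between times. The members and the 36 lists (28 of pathways, 8 of cell types) were chosen with earlier results of these data known. No set test was run. Of 98 named genes, 80 had a promoter in the RefSeq table, and motifs were searched on both strands. Alternatives changed the dye term, centring, scaling, slide set, arrays used, probe averaging and threshold.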

Additional observations from a re-analysis of the deposited data

Results flagged for a closer look

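Among 98 named genes, 7 had an array far from the other 5 at 6 h by Dixon's test for outliers, which chance alone flags in some genes. These arrays were replicate 4 for Hdac7 (-0.804), replicate 2 for Tnfrsf4 (3.484), Cd69 (2.356), Polr1c (0.653) and Epcam (-0.834), replicate 1 for Lfng (-0.020) and replicate 5 for Cldn4 (-0.216). Replicates 1 and 2 are the arrays of slides 13-5 and 13-6.

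The change over uninjected thymocytes differed between times for 29 named genes by limma. Gbp2, Gbp2b and the 6 highest and 6 lowest genes of 12 h minus 6 h were named because these differences were called. The count is thus in part fixed in advance. Over all probes 0.0121% were called between 6 h and 3 h, and 3.18% between 12 h and 6 h. Between 6 h and 3 h the difference was 1.3203 for Gbp2 and 1.118 for Gbp2b. Between 12 h and 6 h it was below 0 for the receptor-induced genes Nr4a1 (-1.292), Gadd45b (-0.9697) and Irf4 (-0.7535), and for the ribosome biogenesis and chaperone genes Fbl (-1.2363), Ppan (-0.8345) and Cct3 (-0.6747). It was also below 0 for Gnb2 (-1.9883), Ssr2 (-1.8377), Maf1 (-1.795), Psmd3 (-1.78), Ptpn6 (-1.7397), Cdk4 (-1.7305) and Csk (-1.6497), whose 12 h means were low on slides 13 to 16 alone. It was above 0 for Klf2 (1.0217), Itgb7 (0.781), Rasa3 (1.1653), Lfng (0.6753), B2m (0.6027), Rtp4 (1.1045), Ifi27l2a (1.5997) and Hmox1 (0.9027). Krt8 (1.3968) and Epcam (0.5507) were likewise higher at 12 h, as were Arhgap20 (1.6598), S100a6 (1.4975), Cpt1a (1.438) and Pls3 (1.3888). The 12 h mean of Krt8 was 2.36 on slides 13-7 and 13-8 and 0.15 on slides 13 to 16.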

How the results depend on the processing

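The count of 753 probes called at 6 h was 1427 with the slide set as a fixed block, 480 with it as a random block, 1906 on slides 9 to 12 alone, 0 on slides 13-5 and 13-6 alone, 267 at an adjusted p under 0.01, and 279 to 996 without 1 array. A dye term for each slide set, added after the array correlations were seen, gave 2675. Of 87 called named genes, 53 kept their call whichever array was left out, 0 changed direction under any setting, and 87 kept their call on slides 9 to 12. All these settings reuse arrays on which the genes were called, which favours such agreement. The random block ended 15 of the 87 calls, the fit of all 18 arrays 21, leaving out the dye term 6, leaving out the centring 1, and slides 13-5 and 13-6 alone all 87. The counts of 36 lists moved by over 1.5 times in 232 of 612 cases, many of them counts of a few genes. The 2 probes called between 6 h and 3 h became 1 without the dye term, 22 from both times only, 118 with the slide set as a block, 6 within series 13, 34 with a dye term for each set (added) and 1 to 6 without 1 array. The 523 called between 12 h and 6 h became 100 from both times only, 1246 with the block, 99 within series 13, 2749 on the other slides, 1451 with a dye term for each set (added) and 123 to 1513 without 1 array. In the added fits between times, replicates 3 to 6 at 3 h were grouped with the slides outside series 13, unlike in the block fits. Within series 13 the difference of Gnb2 turned to 0.0135. PMA and ionomycin gave 64 on slide series 14 and 116 on series 15, against 2650. HDAC7-VP16 gave 182 without the dye term, 0 on series 14, 654 on series 15 and 295 without replicate 1, against 456. The causes were not tested. Signal over background is unknown. No paired analysis was possible because the labels give no replicate numbers, and those used here follow the order of deposit and tie no array to one of another group. The correlations between same-dye arrays of slides 13 at different times are carried only by the blocks above.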
